A study of Sus scrofa with 42 samples.

Results

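The genes described here encode the nuclear-encoded part of the mitochondrial respiratory chain and ATP synthase in early pig embryos. They were taken by name from the deposited expression table, as every gene outside the mitochondrial chromosome whose symbol marks it as an NDUFA, NDUFB, NDUFC, NDUFS or NDUFV, SDHA to SDHD, UQCR, CYC1, COX4 to COX8 or ATP5 gene. The rule found 61 of the 15351 genes in the table. It used no expression value. These 61 genes held 23 subunits of complex I, 3 of complex II, 5 of complex III, 13 of complex IV and 8 of complex V. The name patterns also took in 7 NDUFAF genes, which encode complex I assembly factors, ATP5S (current symbol DMAC2L), an assembly factor of complex V, and COX7A2L, which encodes a factor that joins complexes into supercomplexes. Single cells were sequenced from embryos of 2 kinds, those from in vitro fertilization (IVF) and those from parthenogenetic activation (PA), in which electric pulses activate an oocyte without a sperm. Cells were collected at the 1-cell stage at 19 h, the 2-cell stage at 27 h, the 4-cell stage at 48 h and the 8-cell stage at 72 h after fertilization or activation. For each method there were 3 whole 1-cell embryos, 6 blastomeres of 3 2-cell embryos, 9 blastomeres of 3 4-cell embryos and 3 blastomeres of 1 8-cell embryo, which made 42 cells of 20 embryos in 8 groups. All embryos came from oocytes of slaughterhouse gilt ovaries that were matured in vitro, so every group shared in vitro maturation and culture, and PA embryos carried maternal genomes only and were also exposed to 6-dimethylaminopurine and cytochalasin B. No untreated or in vivo embryo was analysed here.

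The respiratory chain passes electrons from NADH (complex I) and succinate (complex II) through complex III and cytochrome c to oxygen at complex IV, and the proton gradient that results drives ATP synthase (complex V). The mitochondrial genome encodes a small set of core subunits of complexes I, III, IV and V, whereas all subunits of complex II and the great majority of the others are encoded in the nucleus, made in the cytoplasm and imported. The cleaving embryo inherits its mitochondria and most of its mRNA from the oocyte, and the pig embryo is known to turn to its own transcription at around the 4-cell stage.

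Values are FPKM, fragments per kilobase of gene and per unit of mapped reads, so levels of different genes can be set side by side. An embryo's value is the mean over its sequenced blastomeres. Reads recovered from the steps of the FPKM values numbered 5411686 to 18682500 on genes per cell. Of these reads the members took 800 to 56554 per cell. A value of 1 FPKM stood for about 55.4 reads of the median member, and reads amplified from a single cell are not independent molecules. Precision was therefore read from the spread between embryos. The deposited values of 2 PA 4-cell blastomeres were near copies of 2-cell columns. Blastomere 1 of PA 4-cell embryo 2 correlated at r = 0.999 over the genes tested with blastomere 1 of PA 2-cell embryo 2, and blastomere 4 of PA 4-cell embryo 1 at r = 0.999 with blastomere 2 of PA 2-cell embryo 1, while the next pair of cells reached 0.908. Folds of the summed levels that rest on the PA 4-cell group are therefore given with and without these libraries. The tests of single genes include them unless stated otherwise. Of 14 oocyte and early embryo markers fixed for the check of cell identity, 11 were in the table and reached 1 FPKM in some cell. Their summed level was 1006 to 1237 FPKM in IVF 1-cell embryos and 7.25 to 197.3 FPKM in IVF 8-cell blastomeres. The 7 cumulus and granulosa cell markers in the table summed to at most 6.36 FPKM in any cell. The 3 sperm markers in the table summed to at most 2.65 FPKM in any IVF cell of the 1- to 4-cell stages and 32.8 FPKM in 1 IVF 8-cell blastomere (ODF2, whose part in the results was not tested), and in PA cells to at most 10.4 FPKM.

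Most of the 61 genes were detected at low levels. The mean over the 20 embryos was below 1 FPKM for 31 genes (50.8%, against 56.4% of all nuclear genes), between 1 and 10 FPKM for 24 genes and at least 10 FPKM for 6 genes. The highest mean belonged to COX7A2L (36.7 FPKM). It was followed by COX5A, a nuclear subunit of cytochrome c oxidase (12.6 FPKM), NDUFS1, the largest iron-sulfur core subunit of complex I (12.4 FPKM), the complex I assembly factors NDUFAF5 (11.2 FPKM) and NDUFAF4 (11.11 FPKM), and COX7A2, the widely expressed form of subunit 7A of complex IV (11.0 FPKM). NDUFS1, COX6A1 and COX7A2L were the 3 members with a value above 0 in all 42 cells. NDUFA10, an accessory subunit of complex I, was listed at 0 in every cell. For 26 of the 60 other genes (43.3%) the embryo with the highest value was an 8-cell embryo, compared with 16.6% of all nuclear genes with a value above 0. Within complexes the level was concentrated in few genes. The leading gene was UQCRQ in complex III (mean 7.06 FPKM), SDHD in complex II (7.08 FPKM) and ATP5A1, the alpha subunit of the F1 part of ATP synthase (current symbol ATP5F1A), in complex V (9.59 FPKM). The lowest were CYC1 with 0.216 FPKM, SDHA with 0.497 FPKM and ATP5I with 0.111 FPKM. NDUFAF6 was lowest among the complex I assembly factors (0.0867 FPKM) and NDUFA4L2 lowest among the complex IV genes (0.000827 FPKM), and ATP5S was above 0 in a single embryo (mean 0.00203 FPKM).

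**Figure D1:**
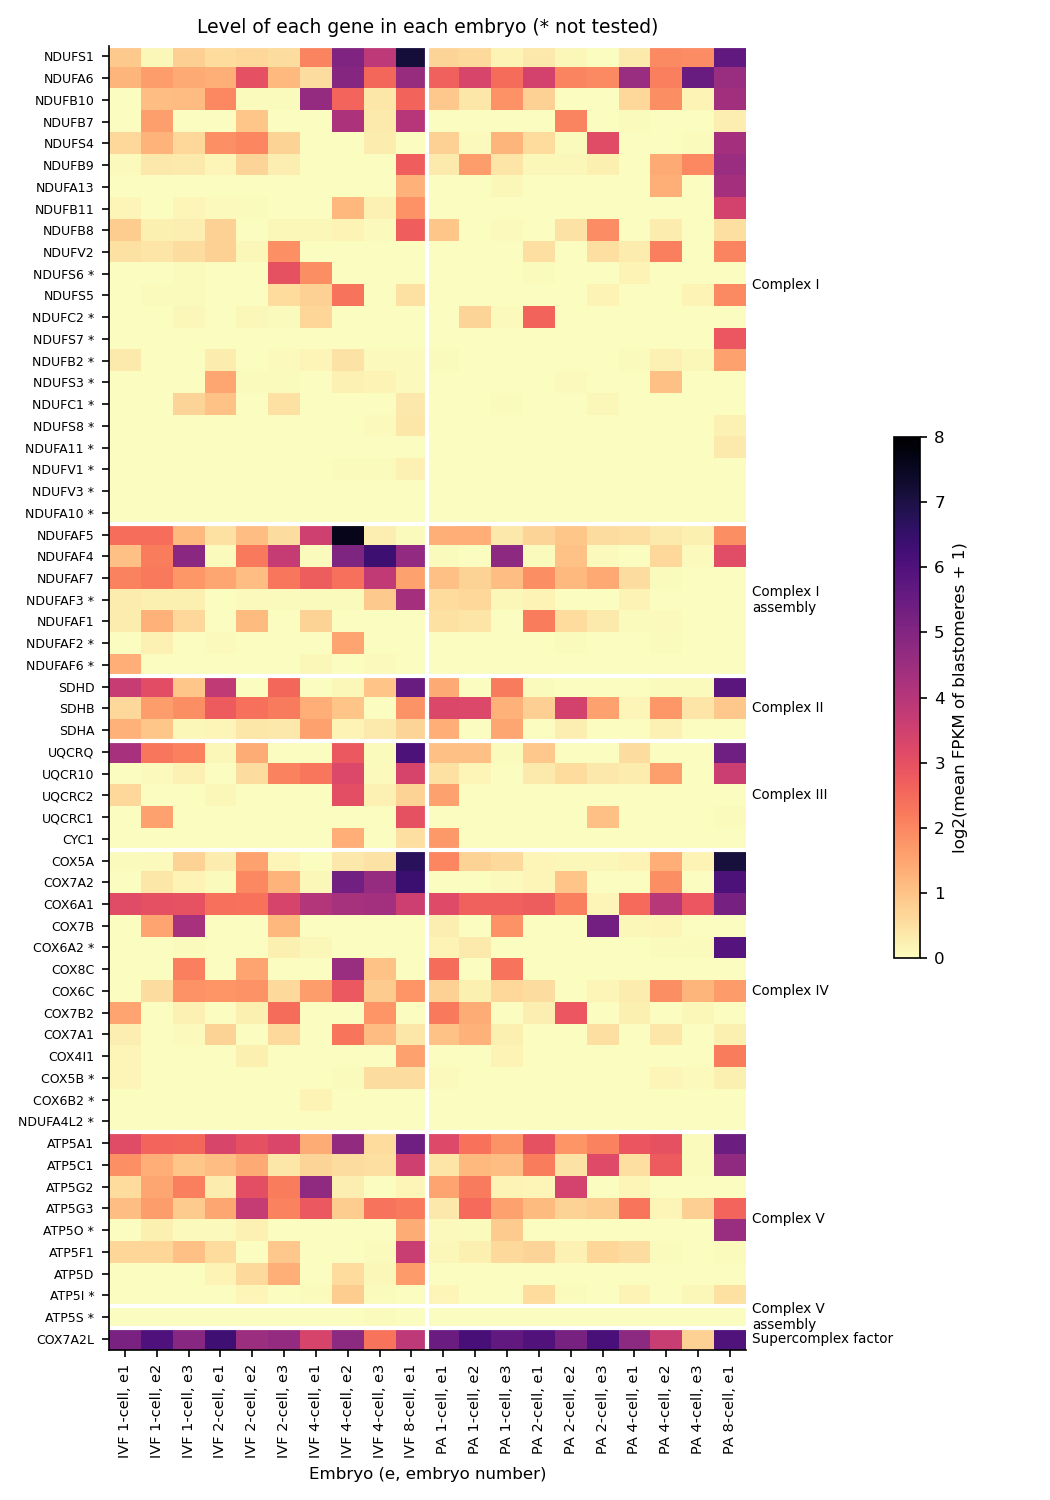
Level of 60 of the 61 nuclear respiratory chain genes (rows, by complex) in the 20 embryos (columns, IVF left of the white line and PA right of it), as log2 of an embryo's mean FPKM plus 1; an asterisk marks the 21 genes that were too low to be tested. COX7A2L is dark in most columns, while NDUFS1, COX5A, COX7A2, UQCRQ and SDHD are darkest in the 8-cell columns.

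The summed level of the 61 genes stood near 110 FPKM through the first cleavage and was highest at the 8-cell stage in both methods. In IVF embryos the sum was 105.2, 122.3 and 116.5 FPKM at the 1-cell stage, 132.5, 90.5 and 103.1 FPKM at the 2-cell stage, 117.7, 490.6 and 180.8 FPKM at the 4-cell stage and 657.7 FPKM in the 8-cell embryo. In PA embryos the sums were 107.9, 119.2 and 113.9 FPKM, then 122.7, 81.2 and 140.3 FPKM, then 68.9, 69.0 and 60.4 FPKM, and 753.5 FPKM in the 8-cell embryo. The 8-cell embryo therefore lay above all 4-cell embryos of its method, by 2.50-fold of the mean in IVF and 11.4-fold in PA. Without the near-copied PA libraries the PA value was 13.1-fold. The IVF value rested on single libraries. It was 1.77-fold without the first 8-cell blastomere, when the 8-cell mean of 464.8 FPKM lay below 4-cell embryo 2, 4.41-fold without that embryo and 8.30-fold by the median ratio over nuclear genes. The share of the summed nuclear FPKM held by these genes was 0.102% ± 0.00388 (SD, n = 3) in IVF 1-cell embryos, 0.472% in the IVF 8-cell embryo and 0.583% in the PA 8-cell embryo. COX7A2L alone made up 37.0% and 37.6% of the group mean in IVF 1- and 2-cell embryos and 47.7% and 47.9% in PA. At the 8-cell stage the sum was led by NDUFS1, COX5A and COX7A2 in IVF (49.4% together) and by COX5A, COX7A2 and COX7A2L in PA (35.3%). With the assembly and supercomplex factors left out, the sum over the structural subunits went from 53.7, 59.2 and 135.3 to 597.9 FPKM over the IVF stages and from 47.9, 55.3 and 52.3 to 680.2 FPKM over the PA stages (group means).

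On the deposited FPKM scale the 13 mRNAs of the mitochondrial chromosome were at higher levels at the 4- than at the 1-cell stage in both methods. Their summed level was 14561 FPKM in IVF 1-cell embryos (mean of 3), 33416 at the 2-cell stage, 62795 at the 4-cell stage and 100431 in the 8-cell embryo. In PA embryos it was 12400, 16059, 66909 and 100616 FPKM. The 3 PA 4-cell embryos were spread widely, at 70707, 23169 and 106851 FPKM. From the 4- to the 8-cell stage the mean differed by 1.60-fold in IVF and 1.504-fold in PA. In IVF this was 1.32-fold when cells were rescaled to the same total of nuclear genes and 4.18-fold by the median ratio over nuclear genes. In PA it was 1.19-fold without the near-copied libraries and was below 1 under both other scalings (0.992-fold and 0.923-fold). The PA 8-cell embryo overlapped its 4-cell embryos in this sum, whereas it did not overlap them in the nuclear sum. Across the 42 cells the log2 sums of nuclear and mitochondrial genes correlated at r = 0.28, and across the 36 cells without the 8-cell stage at r = −0.07. These coefficients are descriptions only, since the cells share embryos and both sums share the scaling of a library. The blastomere with the largest gap between the sums was blastomere 4 of PA 4-cell embryo 3, whose nuclear sum was 11.9 FPKM.

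**Figure D2:**
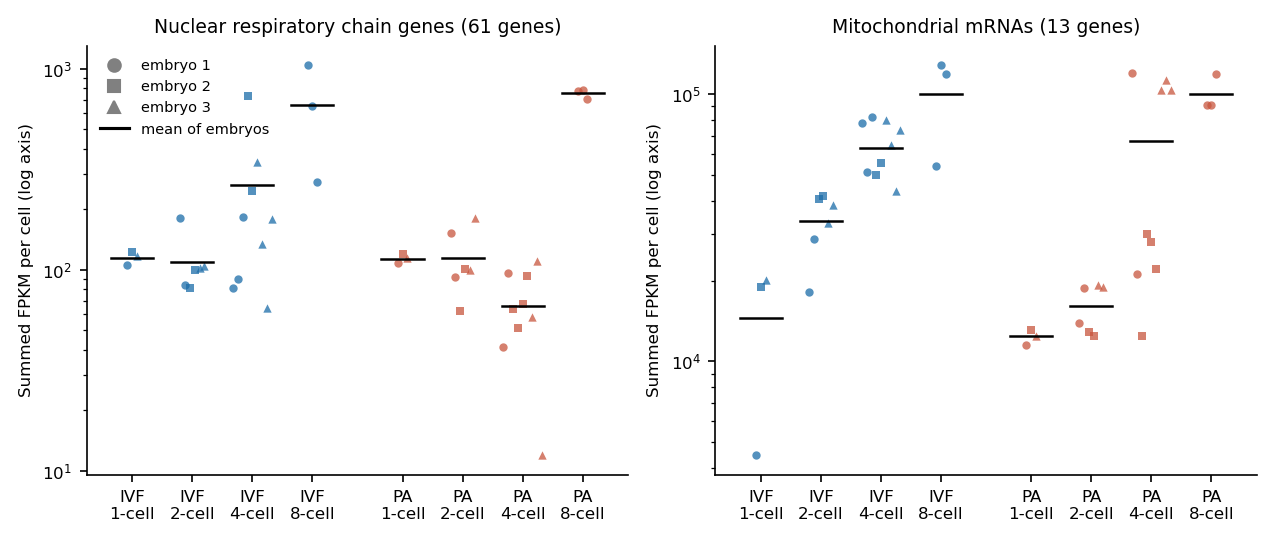
Summed FPKM per cell (log axis) of the 61 nuclear respiratory chain genes (left) and of the 13 mitochondrial mRNAs (right) by method and stage; each point is a cell, its shape is the embryo and the line is the mean of embryos. The nuclear sum stays near 110 FPKM at the 1- and 2-cell stages and reaches 657.7 (IVF) and 753.5 FPKM (PA) at the 8-cell stage, while the mitochondrial sum is already high at the 4-cell stage.

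Between the 4- and the 8-cell stage, 9 of the 40 tested genes among the 61 taken by name were called higher in IVF and 10 in PA. None was called lower. Genes were tested with limma on embryo values, as log2 of FPKM plus 1, over the 8116 genes that reached 1 FPKM in at least 3 cells, which included 40 of the 61 members. Calls needed a Benjamini-Hochberg adjusted p below 0.05 together with a 2-fold or larger change. The members called were 22.5% of 40 in IVF, where 3.72% of all genes tested were called higher, and 25% of 40 in PA, where 6.81% were. The median log2 fold change of the 40 members was 0.62 in IVF and 1.37 in PA, beside −0.38 and −0.15 over all genes, and it was positive for 25 and 30 members. Of the 40 members, 9 passed the filter on low values only through 8-cell cells, and the calls of ATP5F1, COX4I1, NDUFB8 and UQCRC1 in IVF and of COX4I1, NDUFA13 and NDUFB11 in PA were among them. Among the 31 that passed without those cells, 5 were called in IVF and 7 in PA, where 2.4% and 5.47% of all such genes were. Each 8-cell group was 1 embryo, so its spread was borrowed from the other groups. With only the compared groups in the fit, 0 members were called in IVF and 1 in PA (COX4I1). Without the first IVF 8-cell blastomere the IVF count was 5. A pseudocount of 0.1 ended the calls of UQCRQ, NDUFB9, ATP5D, SDHD and NDUFB8 in IVF and of NDUFS1, COX7A2 and NDUFB9 in PA, and the mean of log2 values over blastomeres those of NDUFB9, ATP5D, SDHD and NDUFB8 in IVF and of SDHD in PA. Scaled by the median ratio of nuclear genes in place of the deposited FPKM scale, 15 and 17 members were called. Over all genes tested, 997 were then called higher in IVF and 1206 in PA, beside 302 and 553 on the deposited scale. The share of all calls that were higher went from 53.4% to 86.2% in IVF and from 68.2% to 78.7% in PA.

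COX5A, UQCRQ and SDHD rose in both methods, and each was carried by some of the blastomeres. COX5A (ENSSSCG00000024316, chr7:58622331-58644021, plus strand, Sscrofa11.1) was 0.0171, 0.294 and 0.369 FPKM in the IVF 4-cell embryos, and 217.1, 93.5 and 0.385 FPKM in the 3 IVF 8-cell blastomeres. The PA 4-cell embryos had 0.129, 1.59 and 0.121 FPKM and the PA 8-cell blastomeres 397.7, 13.5 and 0.763 FPKM. In each method 2 blastomeres of 3 lay above every 4-cell cell. The log2 fold change was 6.43 ± 0.92 (SE; adjusted p = 0.000148) in IVF and 6.54 ± 0.92 (adjusted p = 0.000156) in PA. In PA the call was lost without the first 8-cell blastomere. UQCRQ (ENSSSCG00000014289), a small subunit of complex III, was 0.014, 6.13 and 0.0282 FPKM in IVF 4-cell embryos against 181.6, 2.9 and 9.85 FPKM in 8-cell blastomeres. In PA the values were 0.45, 0.014 and 0 FPKM against 0, 25.8 and 93.2 FPKM. The single highest blastomere thus set the IVF call, which was lost without it. The log2 fold changes were 5.07 ± 1.19 (adjusted p = 0.0109) and 5.16 ± 1.19 (adjusted p = 0.00799). UQCRQ was also present in the IVF 1-cell embryos, at 18.2, 3.83 and 3.35 FPKM. SDHD (ENSSSCG00000015034), a membrane anchor subunit of succinate dehydrogenase, had a single high blastomere in each method, at 128.9 FPKM beside 0.0774 and 1.78 FPKM in IVF, while PA had 161.2 FPKM beside 0.0886 and 0 FPKM. Its 4-cell embryos were at 0.0191, 0.078 and 0.979 FPKM in IVF, against 0, 0.0242 and 0.0377 FPKM in PA. The log2 fold changes were 5.10 ± 1.31 (adjusted p = 0.0196) and 5.75 ± 1.31 (adjusted p = 0.0073), and both calls were lost without that blastomere.

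COX4I1 (ENSSSCG00000029034, chr6:3131019-3137482, minus strand), which encodes the ubiquitous form of the first nuclear subunit to join complex IV, was at 0 in all 18 4-cell blastomeres and above 0 in all 6 8-cell blastomeres. These held 4.83, 0.446 and 0.777 FPKM in IVF, against 0.859, 5.78 and 4.00 FPKM in PA. The log2 fold change was 1.59 ± 0.34 (adjusted p = 0.00593) in IVF and 2.18 ± 0.34 (adjusted p = 0.00038) in PA. The level stayed low beside COX5A of the same complex, and the IVF call was lost without the first blastomere. COX7A2 (ENSSSCG00000004480, chr1:90696751-90703485, plus strand) was even across 8-cell blastomeres, at 38.1, 85.2 and 123.6 FPKM in IVF, against 96.8, 59.2 and 40.8 FPKM in PA. Its 4-cell embryos held 0.0679, 39.1 and 23.6 FPKM in IVF and in PA 0, 2.69 and 0 FPKM, and the methods overlapped. It was called from the 4- to the 8-cell stage in PA (log2 fold change 5.43 ± 1.47, adjusted p = 0.0222) and not in IVF.

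NDUFS1 (ENSSSCG00000016127, chr15:109409768-109452435, minus strand) had 3.15, 32.3 and 13.6 FPKM in IVF 4-cell embryos and 0.243, 2.84 and 2.8 FPKM in PA 4-cell embryos. The 8-cell blastomeres held 366.3, 46.6 and 3.72 FPKM in IVF, against 72.1, 29.7 and 44.5 FPKM in PA. All 3 PA blastomeres were above every PA 4-cell cell. The call was made in PA (log2 fold change 4.24 ± 1.09, adjusted p = 0.016) and not in IVF. NDUFS1 needs care, because its deposited gene model shares 611 bases with EEF1B2, a translation elongation factor gene on the opposite strand, and the strandedness of the libraries is not given in the sources used here. The pair correlated at r = 0.964 over the 42 cells, and EEF1B2 had group means of 1.39, 1.39, 63.0 and 542.1 FPKM over the IVF stages and 1.87, 0.330, 6.48 and 252.6 FPKM over the PA stages. In the RefSeq annotation of the same assembly the genes do not overlap and lie 87 bases apart. Reads of the pair cannot be told apart in these values. In all, 28 members shared bases with another gene of the table, 25 of them with a gene on the opposite strand, and 8 of the 28 correlated with that gene at r above 0.8. Beside NDUFS1, 7 members were in this position. They were CYC1 (with SHARPIN, 0.952), COX7B (with ALDH1L2, 0.948), COX7A1 (with CAPNS1, 0.947), NDUFAF3 (with IMPDH2, 0.925), NDUFB7 (with TECR, 0.923), COX6A1 (with ENSSSCG00000031152, 0.867) and NDUFB10 (with ENSSSCG00000033697, 0.834). UQCRQ (with GDF9, 0.014), COX4I1 (with EMC8, 0.154), SDHD (with TIMM8B, 0.255) and ATP5F1 (with WDR77, 0.248) were overlapped as well, without such a relation. Among the 21 tested members that no other gene of the table overlapped, 4 were called from the 4- to the 8-cell stage in IVF and 5 in PA. RefSeq still lists another gene on the same strand over part of ATP5D (MIDN), NDUFB8 (SEC31B) and UQCRC1 (COL7A1), all called in IVF. On the opposite strand it lists another gene for NDUFA13 (TSSK6), NDUFB11 (RBM10) and NDUFS4 (LOC100515977), called in PA. For COX5A and COX7A2 it lists a single gene at the locus.

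Among the other complex I subunits, NDUFB9 rose in both methods, NDUFB8 in IVF and NDUFA13, NDUFB11 and NDUFS4 in PA, and no interaction of method with this step was called for them. NDUFB9, an accessory subunit of the membrane arm, was at 0 in all IVF 4-cell embryos and 5.55 FPKM in the IVF 8-cell embryo, carried by 15.7 FPKM in 1 blastomere beside 0.497 and 0.433 FPKM. In PA it was 0, 1.7 and 2.98 FPKM at the 4-cell stage and 0.458, 46.0 and 18.8 FPKM in 8-cell blastomeres. The log2 fold changes were 2.71 ± 0.78 (adjusted p = 0.0396) and 3.37 ± 0.78 (adjusted p = 0.0081), and leaving out that IVF blastomere, or the second PA one, ended the call. The IVF call of NDUFB9 was lost under 6 of 16 other settings and that of NDUFB8 under 5. NDUFB8 was called in IVF through 1 blastomere with 16.7 FPKM, its sisters being at 0 (log2 fold change 2.59 ± 0.66, adjusted p = 0.0178), and the call was lost without it. NDUFA13, a complex I subunit also known as GRIM-19, was called in PA (log2 fold change 3.87 ± 0.49, adjusted p = 5.6e-05). Its PA 4-cell embryos held 0, 1.52 and 0.00659 FPKM and its PA 8-cell blastomeres 11.06, 11.0 and 34.6 FPKM. In IVF the 8-cell blastomeres held 0.391, 3.94 and 0 FPKM and the gene was not called. NDUFB11 had 0.047, 6.62 and 22.4 FPKM in PA 8-cell blastomeres and at most 0.0168 FPKM in a PA 4-cell embryo (log2 fold change 3.41 ± 0.47, adjusted p = 0.000111). NDUFS4, an accessory subunit of the matrix arm, had 28.8, 27.8 and 0.0883 FPKM in PA 8-cell blastomeres against 0.0166 FPKM on average at the 4-cell stage (log2 fold change 4.29 ± 0.98, adjusted p = 0.00744). In IVF 8-cell blastomeres NDUFS4 reached no more than 0.0259 FPKM. By complex, 2 of 12 tested complex I subunits were called in IVF and 5 of 12 in PA, 1 and 1 of 3 in complex II, 2 and 1 of 5 in complex III, 2 and 3 of 9 in complex IV, and 2 and 0 of 6 in complex V. None of the 4 tested assembly factors was called, and neither was COX7A2L. Without the near-copied PA libraries no PA call at this step was lost, and COX7A2L was called higher in PA.

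**Figure D3:**
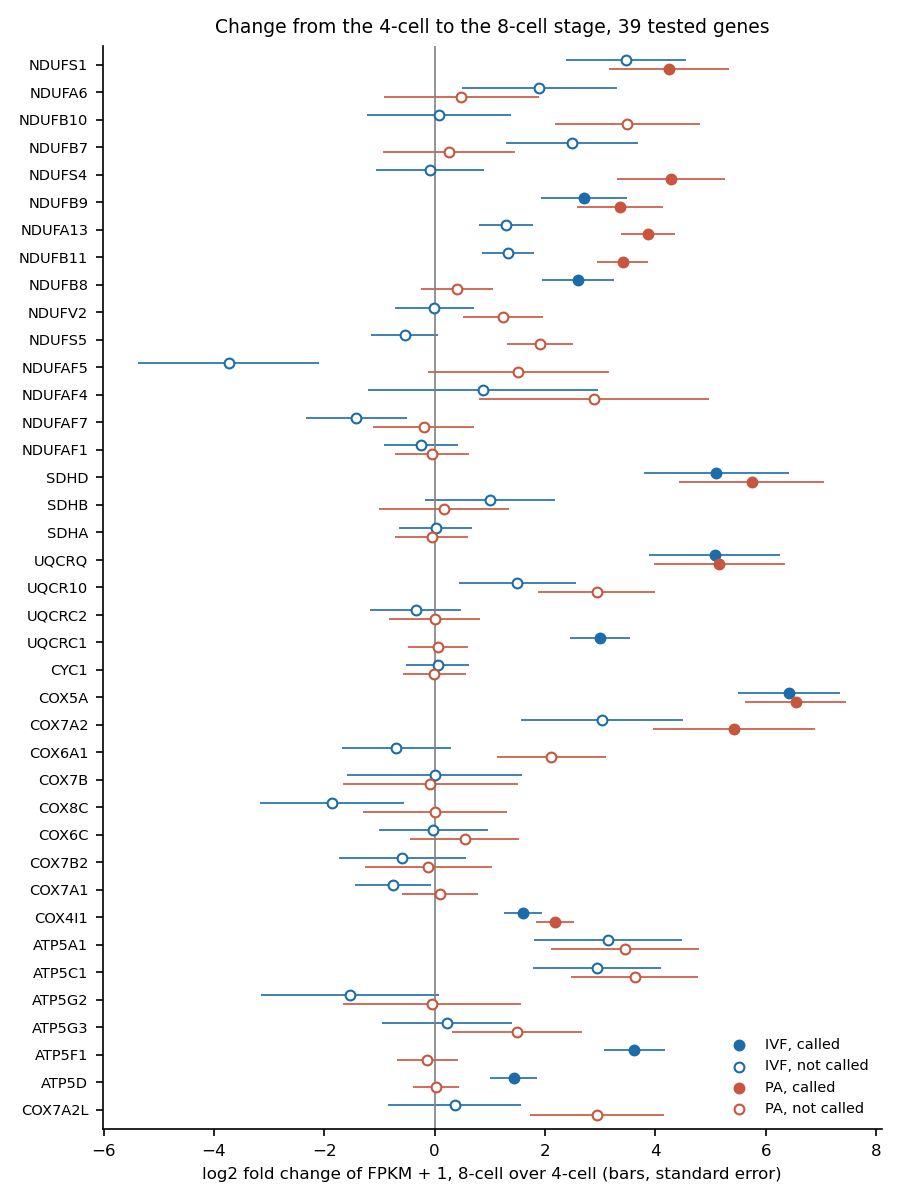
Log2 fold change of FPKM plus 1 from the 4-cell to the 8-cell stage for 39 of the 40 tested genes, in IVF (blue) and PA (red); bars are the standard error of limma and filled points are calls (adjusted p below 0.05 with a 2-fold or larger change). COX5A, SDHD and UQCRQ lie between 5.07 and 6.54 in both methods, whereas ATP5F1 and UQCRC1 lie at 3.62 and 2.99 in IVF and near 0 in PA.

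ATP5F1 and UQCRC1 rose in IVF and were not called in PA, and the difference between the methods was itself called. Both reached 1 FPKM in only 2 cells outside the 8-cell stage, so they passed the filter through 8-cell cells, the IVF ones, in which they were high. Among the 31 members that passed without those cells the interaction called 0, where it called 2.13% of all such genes. This interaction rests on 1 8-cell embryo of each method, so its spread was borrowed from the other groups. ATP5F1 (current symbol ATP5PB), the b subunit of the peripheral stalk of ATP synthase, was 0, 0.0039 and 0.0321 FPKM in IVF 4-cell embryos and 23.9, 10.2 and 0.123 FPKM in IVF 8-cell blastomeres. In PA it was 0.455, 0.0365 and 0.00333 FPKM at the 4-cell stage and 0, 0 and 0.13 FPKM in 8-cell blastomeres. The log2 fold change in IVF was 3.62 ± 0.55 (adjusted p = 0.000294), and the interaction of method with the step was 3.75 ± 0.78 (IVF over PA, adjusted p = 0.0143). UQCRC1, a core subunit of complex III, was 0, 0.0101 and 0.00395 FPKM in IVF 4-cell embryos and 0, 20.4 and 0.615 FPKM in 8-cell blastomeres, so it rested on 1 blastomere. PA 8-cell blastomeres held 0.114, 0 and 0.0072 FPKM. The change in IVF was 2.99 ± 0.55 (adjusted p = 0.00152) and the interaction 2.94 ± 0.77 (adjusted p = 0.0475). Both interactions were lost with a pseudocount of 0.1, with the mean of log2 values over blastomeres and with a filter at 5 FPKM. That of UQCRC1 was also lost with nuclear genes rescaled, with the replicate block, without the second IVF 8-cell blastomere, without IVF 4-cell embryo 3, without any 1 of the PA 4-cell embryos and without the second PA 8-cell blastomere. These were 2 of 40 members (5%), where 2.86% of all genes had a called interaction at this step. ATP5D, the delta subunit of ATP synthase, was also called in IVF (0.00553, 0.504 and 0.0711 against 2.17 FPKM, log2 fold change 1.43 ± 0.42, adjusted p = 0.0456) and sat at 0 in the PA 4-cell embryos and 0.0143 FPKM in the PA 8-cell embryo. Its interaction was not called. Its 8-cell value came from 1 blastomere with 6.24 FPKM. The IVF call of ATP5D was lost under 10 of 16 other settings, among them both other pseudocounts, leaving out that blastomere, 4-cell embryo 1 or 4-cell embryo 3, and leaving out the near-copied PA libraries.

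**Figure D4:**
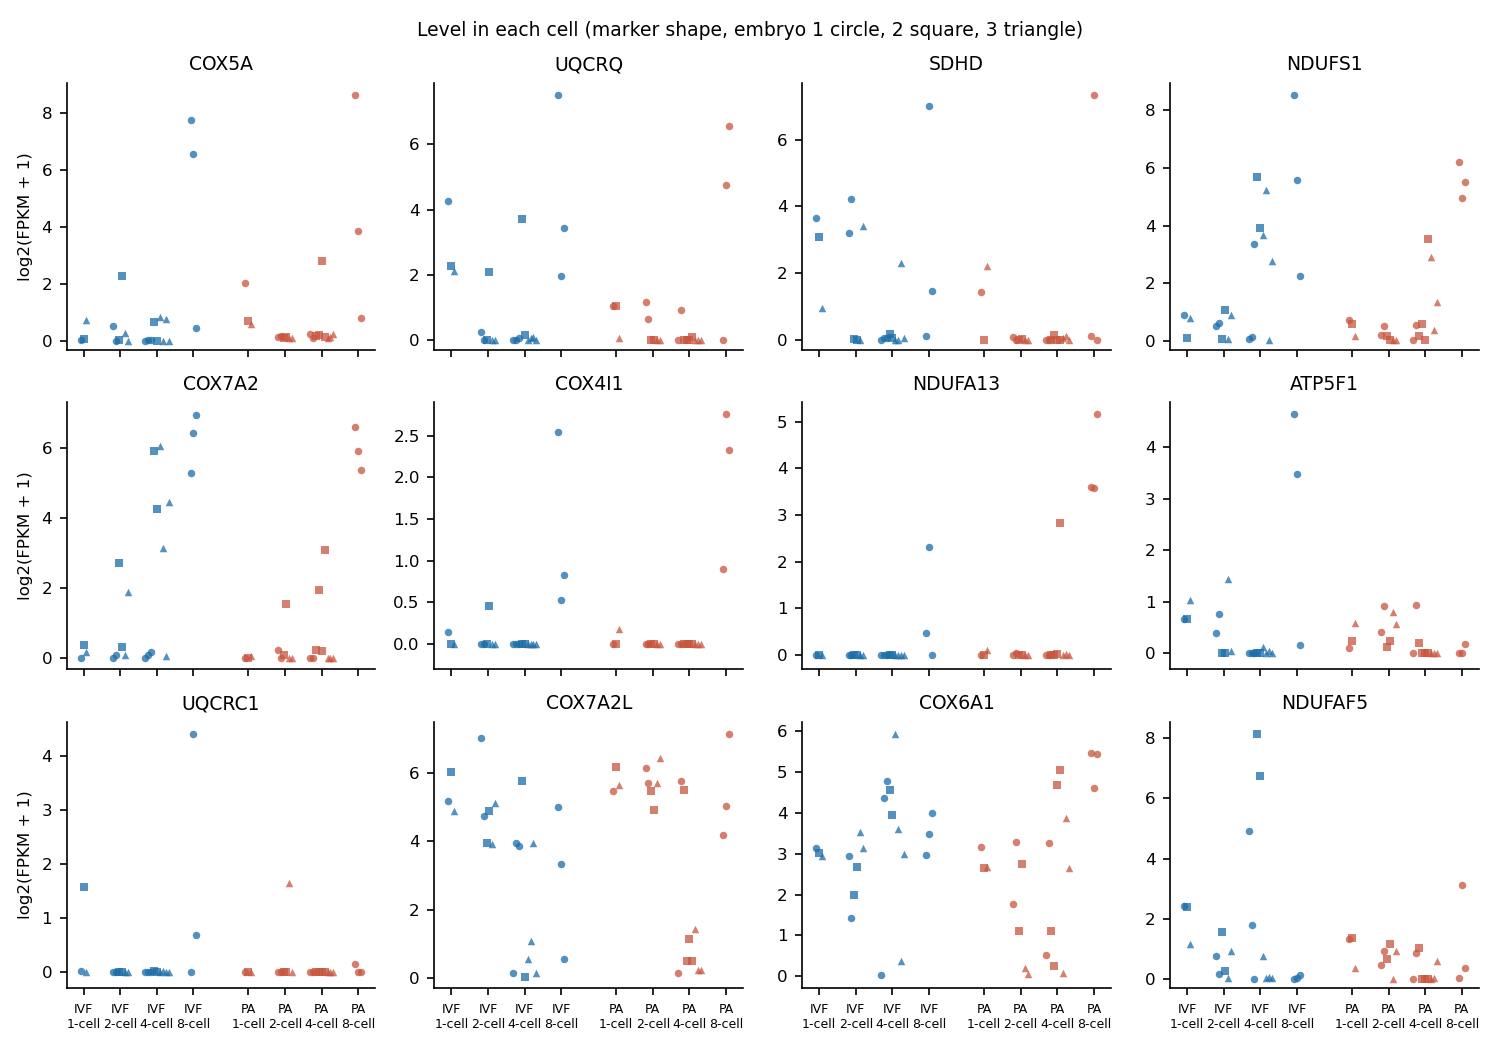
Level in each of the 42 cells, as log2 of FPKM plus 1, of 12 genes by method and stage, with the marker shape giving the embryo within its group; the vertical axes differ between panels. At the 8-cell stage COX5A, UQCRQ and SDHD range from near 0 to above 6 among sister blastomeres, whereas COX7A2 is high in all 6 cells.

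Blastomeres of the same 8-cell embryo differed in which subunit mRNAs were measured at a high level. Each cell was amplified before sequencing, and the part of that step in these differences was not tested. Of the 9 genes called in IVF, 3 (ATP5F1, COX4I1 and NDUFB9) were above every IVF 4-cell cell in all 3 blastomeres, 2 (COX5A and UQCRC1) in 2 blastomeres and 4 (ATP5D, NDUFB8, SDHD and UQCRQ) in 1 blastomere. Of the 10 genes called in PA, 6 were above every PA 4-cell cell in all 3 blastomeres (COX4I1, COX7A2, NDUFA13, NDUFB11, NDUFS1 and NDUFS4), 3 in 2 blastomeres (COX5A, NDUFB9 and UQCRQ) and SDHD in 1. Some of these counts rest on values near 0. In PA the lowest 8-cell blastomere against the highest 4-cell cell was 0.047 against 0.0404 FPKM for NDUFB11 and 0.0883 against 0.0574 FPKM for NDUFS4. For ATP5F1 in IVF it was 0.123 against 0.0975 FPKM. Of all genes called higher at this step, 18.2% of 302 in IVF and 24.8% of 553 in PA were above every 4-cell cell in all 3 blastomeres. In sum the PA blastomeres were close to each other, at 775.7, 781.6 and 703.3 FPKM, and those of IVF were not, at 1043, 655.2 and 274.4 FPKM. COX6A2, the form of subunit 6A known from heart and skeletal muscle, was at 176.5 FPKM in a single PA 8-cell blastomere and at no more than 0.254 FPKM in any other embryo. It was not tested, because too few cells reached 1 FPKM, and neither were ATP5O (66.5 FPKM in 1 PA 8-cell blastomere) and NDUFS7 (18.6 FPKM in the same blastomere).

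The regions before the starts of UQCRQ, SDHD and COX4I1 are shown because these genes rose in both methods and hold a motif of factors known to regulate respiratory genes. The motifs searched on both strands were GCATGCGC for NRF1, ACTTCCGG for the ETS family (which includes GABP) and AAGATGGC for YY1. None of these contains another, and a window with several matches was counted once per motif. Windows ran from 250 bases before to 50 after the start of the deposited gene model and were cut from the NCBI Sscrofa11.1 genome. Below are the 250 bases before the start in the direction of the gene, with motif matches in capitals (ACTTCCGG or its complement CCGGAAGT, and GCCATCTT, the complement of the YY1 letters). The COX5A region, which holds none of them, is shown beside them. The regions are chr2:135186204-135186453 (plus strand) for UQCRQ, chr9:39790387-39790636 (plus strand) for SDHD, chr6:3137483-3137732 (minus strand) for COX4I1 and chr7:58622081-58622330 (plus strand) for COX5A.
UQCRQ: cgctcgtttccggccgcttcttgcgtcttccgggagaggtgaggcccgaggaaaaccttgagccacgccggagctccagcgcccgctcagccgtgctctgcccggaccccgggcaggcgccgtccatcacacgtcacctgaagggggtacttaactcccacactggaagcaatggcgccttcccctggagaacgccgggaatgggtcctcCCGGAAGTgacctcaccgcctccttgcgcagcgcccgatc
SDHD: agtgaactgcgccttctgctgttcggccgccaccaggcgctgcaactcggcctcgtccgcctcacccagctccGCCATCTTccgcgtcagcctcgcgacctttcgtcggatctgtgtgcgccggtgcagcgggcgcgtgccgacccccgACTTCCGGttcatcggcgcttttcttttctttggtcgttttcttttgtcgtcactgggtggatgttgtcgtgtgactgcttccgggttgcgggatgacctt
COX4I1: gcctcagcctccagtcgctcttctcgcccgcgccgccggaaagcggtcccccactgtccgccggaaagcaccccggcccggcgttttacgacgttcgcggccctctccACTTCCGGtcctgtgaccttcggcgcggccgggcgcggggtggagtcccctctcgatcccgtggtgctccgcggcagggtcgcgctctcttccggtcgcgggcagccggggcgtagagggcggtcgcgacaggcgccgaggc
COX5A: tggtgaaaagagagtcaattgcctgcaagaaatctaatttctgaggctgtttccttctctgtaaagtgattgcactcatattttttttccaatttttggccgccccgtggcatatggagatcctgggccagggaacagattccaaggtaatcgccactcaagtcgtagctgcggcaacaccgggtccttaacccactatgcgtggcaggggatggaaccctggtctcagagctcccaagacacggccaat
The ETS letters lie at −40 in UQCRQ, at −101 in SDHD and at −142 in COX4I1, counted from the gene start, and the YY1 letters at −177 in SDHD. UQCRQ holds a further ETS match just after its start. The printed regions of UQCRQ, SDHD and COX4I1 lie inside the deposited models of GDF9, TIMM8B and EMC8, genes on the opposite strand. The YY1 letters of SDHD also lie inside the RefSeq span of TIMM8B. Whether a match serves the member or its neighbour was not tested. Among the 61 members 6 windows held the NRF1 letters (9.84%, against 3.02% of 15322 genes with a window), 6 the ETS letters (9.84% against 4.76%) and 5 the YY1 letters (8.2% against 3.41%). In the 250 bases before the start alone, the shares were 8.2% against 2.21% for NRF1 and 8.2% against 3.49% for ETS, and for YY1 1.64% against 1.78%. Any of the 3 was found in 15 members (24.6%), compared with 10.4% of all genes, and before the start alone in 16.4% compared with 7.09%. Of the 9 members called in both methods from the 4- or the 1- to the 8-cell stage, 3 held a motif. A match is a run of letters, and no factor binding was measured in these cells.

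Compared with the 1-cell stage, 11 members were called higher at the 8-cell stage in IVF (27.5% of 40, where 6.03% of all genes were called higher) and 13 in PA (32.5%, where 7.58% were). None was called lower. Members that pass the filter without 8-cell cells numbered 31, of which 6 and 9 were called, where 4.47% and 6.13% of all such genes were. COX4I1, COX5A, COX7A2, NDUFB11, NDUFB9, NDUFS1, SDHD, UQCR10 and UQCRQ were the 9 members called in both methods from the 4- or the 1- to the 8-cell stage. SDHD and UQCRQ were not called from the 1- to the 8-cell stage in IVF. NDUFS1 was 0.853, 0.0793 and 0.729 FPKM in IVF 1-cell embryos and 138.9 FPKM in the 8-cell embryo (log2 fold change 6.53 ± 1.09, adjusted p = 0.000441), and 0.645, 0.519 and 0.126 against 48.8 FPKM in PA (5.14 ± 1.09, adjusted p = 0.00396). COX7A2 was at most 0.309 FPKM in the 1-cell embryos of either method and 82.3 and 65.6 FPKM in the 8-cell embryos (log2 fold changes 6.19 ± 1.47 in IVF and 6.03 ± 1.47 in PA, adjusted p = 0.00826 and 0.0101). The calls of NDUFS1 and COX7A2 in both methods and of COX5A in IVF over this span were made under all 16 other settings tried (pseudocounts, filters, scalings, averaging on the log scale, a fit of only the groups compared, the replicate block, and the near-copied libraries or single embryos or blastomeres left out), and that of NDUFS1 carries the limit of its overlap given above. Of the calls over this span, 5 in IVF and 4 in PA rested on genes that passed the filter only through 8-cell cells. These were ATP5F1, COX4I1, NDUFB8, NDUFB11 and UQCRC1 in IVF, and COX4I1, NDUFA13, NDUFB11 and NDUFS5 in PA. UQCR10, a small complex III subunit, was called in both methods (3.25 ± 1.06, adjusted p = 0.0463 in IVF and 3.36 ± 1.06, adjusted p = 0.0404 in PA) and rested on 27.5 and 32.5 FPKM in 1 blastomere of each embryo. Its call was lost in both methods without any 1 of the 1-cell embryos and without that blastomere. ATP5C1, the gamma subunit of ATP synthase (current symbol ATP5F1C), was called in PA alone, from 0.334, 1.27 and 1.12 to 25.6 FPKM (3.84 ± 1.16, adjusted p = 0.0331). This call was lost without any 1 of the PA 1-cell embryos and without the first PA 8-cell blastomere. The IVF 8-cell embryo held 10.5 FPKM, and the difference between the methods over this span was not tested.

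At the earlier steps no member was called. From the 1- to the 2-cell stage limma called 0 members in IVF, where 0% of all genes were called, and 0 in PA, where 0.0986% were, and 2 and 0 members had an unadjusted p below 0.05. From the 2- to the 4-cell stage 0 members were called in IVF (1.11% of all genes) and 0 in PA (0.394%), with 4 and 1 members at an unadjusted p below 0.05. The smallest adjusted p of a member was 0.0572 in IVF and 0.235 in PA. Between groups of 3 embryos the standard error of a log2 change was 0.816 at the median, so changes below several-fold were not detectable. Levels of single members nevertheless differed widely between IVF 4-cell embryos. NDUFAF5, which hydroxylates a core subunit during complex I assembly, was 10.5, 192.4 and 0.205 FPKM. NDUFAF4 was 0.0377, 32.4 and 81.2 FPKM and COX8C, a form of subunit 8 known from testis, 0, 22.5 and 1.04 FPKM. COX7A2L, the leading member of the early embryos, was 34.9, 63.8 and 28.4 FPKM in IVF 1-cell embryos, 77.3, 21.4 and 24.0 FPKM at the 2-cell stage and 9.37, 26.9 and 4.06 FPKM at the 4-cell stage. In PA it was 43.2, 70.4 and 49.2, then 60.6, 36.1 and 68.2, then 26.8, 11.5 and 0.685 FPKM. Among the PA 4-cell blastomeres the near-copied libraries held 53.4 and 44.1 FPKM and the other 7 cells 0.108 to 1.70 FPKM. With those libraries left out COX7A2L was called lower from the 2- to the 4-cell stage in PA, and higher from the 4- to the 8-cell stage.

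No tested member was called different between IVF and PA embryos of the same stage. Limma called 0 of 40 members at the 1-cell stage (0.0493% of all genes), 0 at the 2-cell stage (0%) and 0 at the 4-cell stage (0.554%), and 1, 2 and 7 members had an unadjusted p below 0.05. At the 4-cell stage the smallest adjusted p of a member was 0.0585. The log2 difference was positive (IVF above PA) for 31 of the 40 members there, with a median of 0.47, beside 0.23 over all genes. The sum over the 61 genes was 3.98-fold higher in IVF at this stage with no overlap of embryos, and 4.58-fold without the near-copied libraries. It was 2.95-fold with cells rescaled to the same total of nuclear genes, and by the median ratio over nuclear genes it turned to 0.525-fold with overlapping embryos. NDUFAF7, an assembly factor that methylates a core subunit of complex I, was 5.66, 4.22 and 12.5 FPKM in IVF, against 0.455, 0.0441 and 0 FPKM in PA at this stage. It was called when the near-copied PA libraries were left out, and COX7A2L with it. The interactions of method with the step from the 1- to the 2-cell stage and from the 2- to the 4-cell stage called 0 members and 0% of all genes each, with 0 and 2 members at an unadjusted p below 0.05. Apart from the interaction given above, the 8-cell embryos, 1 of each method, can be set side by side only by their values. NDUFA13 was 1.45 FPKM in the IVF and 18.9 FPKM in the PA embryo, NDUFS4 0.00865 and 18.9 FPKM, and ATP5F1 11.4 and 0.0433 FPKM. NDUFA6, an accessory complex I subunit, was 22.7 and 22.2 FPKM, and ATP5A1 39.8 and 41.8 FPKM.

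Core subunits of the same complex stood at very different levels. In complex I, NDUFV1, the flavin-binding subunit that takes electrons from NADH, did not exceed 0.163 FPKM in any embryo and was not tested, whereas NDUFS1 reached 138.9 FPKM. That NDUFS1 value is the mean of blastomeres at 366.3, 46.6 and 3.72 FPKM and may hold reads of EEF1B2, as given above. In complex II, the catalytic flavoprotein SDHA was at most 1.97 FPKM and the iron-sulfur subunit SDHB at most 9.82 FPKM, in PA 2-cell embryo 2, against 53.8 FPKM for SDHD. In complex III, CYC1, the cytochrome c1 subunit that hands electrons to cytochrome c, was above 0 in 4 embryos and at most 2.28 FPKM. ATP5A1 was between 2.40 and 9.14 FPKM in all 1- and 2-cell embryos and 24.7 FPKM in IVF 4-cell embryo 2, and it was not called at any step. Among isoforms, COX6A1 was at 4.15 to 9.19 FPKM in IVF 1- and 2-cell embryos, 15.4, 18.6 and 19.7 FPKM at the IVF 4-cell stage and 10.6 and 36.3 FPKM in the 8-cell embryos of IVF and PA. In PA 1-, 2- and 4-cell embryos it was 0.0926 to 14.6 FPKM, the lowest being 2-cell embryo 3. COX6A2 exceeded it in the PA 8-cell embryo (58.9 FPKM), through the single blastomere given above, and was below COX6A1 in every other embryo. COX7A2 exceeded COX7A1, the muscle form, in both 8-cell embryos (82.3 against 0.31 FPKM in IVF and 65.6 against 0.168 FPKM in PA). COX8C was 0 in both 8-cell embryos and COX6B2 was above 0 in a single embryo. Of the ring-forming c subunit genes of ATP synthase, ATP5G2 was highest in IVF 4-cell embryo 1 (25.9 FPKM) and ATP5G3 in IVF 2-cell embryo 2 (12.1 FPKM).

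Further subunits are in the table under an Ensembl identifier or an older name, which the name rule does not reach. They numbered 21 symbols, of which 13 were tested. Their 8-cell values are those of 1 embryo per method, and results under other settings are not given for them. The highest mean was that of COX8A, the ubiquitous form of complex IV subunit 8 (51.8 FPKM), above every member found by name. It was higher at the 8- than at the 1-cell stage in IVF (8.96 against 102.3 FPKM, log2 fold change 3.54 ± 1.07, adjusted p = 0.0327). Its IVF means at the 2- and 4-cell stages were 26.3 and 105.7 FPKM, so the 8-cell level was already reached at the 4-cell stage. In PA the means were 21.6, 51.4, 41.6 and 166.8 FPKM over the stages. COX8A is not part of the summed level of the 61 genes. NDUFA8 and UQCRFS1, the Rieske iron-sulfur protein of complex III, rose from the 4- to the 8-cell stage in IVF (5.28 ± 1.12, adjusted p = 0.00515, and 2.94 ± 0.71, adjusted p = 0.0129), and NDUFA4, a complex IV subunit despite its name, in PA (3.93 ± 1.00, adjusted p = 0.0154). NDUFA2 went the other way. It rose from 0.071 to 27.9 FPKM from the 2- to the 4-cell stage in IVF (log2 fold change 4.49 ± 0.65, adjusted p = 0.00121) and fell to 0.0574 FPKM in the 8-cell embryo (−4.50 ± 0.92, adjusted p = 0.00381). SDHC had a mean of 1.56 FPKM and was not called at these steps. ATP5IF1, the inhibitor of ATP synthase, was highest in IVF 4-cell embryo 2 at 256.7 FPKM. Of 61 subunits of complexes I to IV in the fixed list, 38 were found by name and 15 under an identifier, and the other 8 were not analysed here.

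Genes that build and serve the chain were read from fixed lists over the same step. Their 8-cell values are also those of 1 embryo per method. Values of single blastomeres and results under other settings are not given for them. Of 18 tested assembly factors outside the NDUFAF family, 3 rose and 1 fell in IVF and 3 rose in PA from the 4- to the 8-cell stage. COX17, the copper chaperone of complex IV, rose in both (1.52 to 33.6 FPKM in IVF, 0.00427 to 29.4 FPKM in PA, adjusted p = 0.0019 and 0.000292). NUBPL, which inserts iron-sulfur clusters into complex I, rose in IVF from 0.0236 to 49.6 FPKM (log2 fold change 5.63 ± 0.92, adjusted p = 0.000589), as did TIMMDC1 (2.52 ± 0.50, adjusted p = 0.00308). SCO1, a copper delivery factor, rose from the 2- to the 4-cell stage in IVF and fell to 0 FPKM at the 8-cell stage (−3.69 ± 0.97, adjusted p = 0.0234). PET100 and BCS1L, factors for complexes IV and III, rose in PA. Of 9 electron and adenylate carriers, ETFB rose in both methods, and ETFA had fallen in IVF from 32.3 to 1.23 FPKM between the 2- and the 4-cell stage. Among 16 tested regulators of mitochondrial gene expression, TFAM, the factor that packages mitochondrial DNA and starts its transcription, rose from the 2- to the 4-cell stage in both methods. It went from 0.0387 to 77.4 FPKM in IVF (5.92 ± 0.68, adjusted p = 0.000104) and from 0.621 to 96.7 FPKM in PA (5.96 ± 0.68, adjusted p = 0.000165). TFB2M, a mitochondrial transcription factor, and PPRC1 rose from the 4- to the 8-cell stage in PA. Of 17 import genes, 3 rose in IVF and 6 in PA, with TOMM20, the outer membrane receptor, TIMM9 and TIMM21 in both. Beside the 3.72% (IVF) and 6.81% (PA) of all genes called higher at this step, mitochondrial ribosomal protein genes were called higher in 2 of 42 in IVF (and lower in 1) and in 8 of 42 in PA, and cytoplasmic ribosomal protein genes in 9 of 48 and 27 of 48. Of the 21 tested genes of the mitochondrial chromosome, 2 were called higher in PA at this step.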

How the data were processed

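By the study's methods, single embryos or blastomeres were lysed and amplified with Ansuper-seq, a method that also captures transcripts lacking polyA, whereas the extraction protocol in the labels describes Trizol and total RNA. The authors mapped reads to Sscrofa 11.1 with HISAT 2 (as the submitters' processing notes name them), assembled transcripts with StringTie, counted with HTSeq and deposited FPKM per gene and cell. Strandedness, molecular identifiers and the annotation release are not given in the sources used here. The number of columns from other samples was 0. The members and lists were chosen with earlier results of these data known.

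From the FPKM, each embryo's mean over blastomeres was taken, 1 was added and log2 was taken. Genes with at least 1 FPKM in at least 3 cells were fitted with limma 3.58.1 (R 4.3.3, mean-variance trend, 8 groups), which was tested on simulated data. DESeq2, which the authors used on counts, does not suit FPKM. The study says that embryos are separate, and it does not say whether they came from separate ovary batches, so p-values measure the spread between these embryos. In comparisons with an 8-cell group, that spread came from the other groups. The 8-cell stages of IVF and PA, with 1 embryo each, were not compared by a test of their own. The interaction from the 4- to the 8-cell stage does set them against each other. Sums, reads and motifs were computed in Python 3.11.15 (pandas 2.3.3, numpy 2.4.6, scipy 1.17.1) and drawn with matplotlib 3.10.9. Genes named were core subunits, isoform pairs, called members (the 10 largest with no overlap between embryos where more were called), the highest and lowest member of each complex, members whose call an alternative changed and other pathway genes where called. COX6A2, ATP5O, NDUFS7, NDUFA6, ATP5IF1 and the overlapped members were added after their values were seen. The values of 1 member are not reported here. Alternatives were other pseudocounts, filters and scalings, a mean of log2 values, fits on fewer groups, a replicate block, and leaving out embryos, blastomeres, near-copied libraries or, chosen after the data were seen, overlapped members.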

Additional observations from a re-analysis of the deposited data

Results flagged for a closer look

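Each cell's sum over the members of a complex was compared with those of the other cells of its group, and the highest or lowest was singled out where it stood far from the rest by Dixon's test. This gave 12 of 40 tests, where chance gives about 1 in 20 for independent, normally distributed values. That rate does not hold here. The sums were on the FPKM scale, some contain others, and cells of an embryo are not independent. All 12 were high values. In blastomere 1 of IVF 2-cell embryo 1 the 61 genes summed to 180.8 FPKM, beside 81.1 to 104.1 FPKM in the other 5 cells, and COX7A2L alone was 129.1 FPKM, beside 14.0 to 33.9 FPKM. In blastomere 1 of IVF 2-cell embryo 3 the complex I assembly factors summed to 27.1 FPKM (others 0.629 to 9.61 FPKM). Blastomere 2 of IVF 4-cell embryo 2 stood apart in 3 sums, with 734.1 FPKM over all members (others 64.4 to 345.2 FPKM), 43.7 FPKM over complex III (others 0 to 8.67 FPKM) and 53.7 FPKM for COX7A2L (others 0.0218 to 14.5 FPKM).

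In PA embryos, blastomere 1 of 2-cell embryo 1 held 54.7 FPKM over complex I (others 3.47 to 21.1 FPKM) and 11.8 FPKM over its assembly factors (others 1.78 to 4.10 FPKM). Blastomere 2 of 2-cell embryo 3 held 78.3 FPKM over complex IV (others 0.246 to 20.2 FPKM), which includes the COX7B value of that embryo. Blastomere 1 of 4-cell embryo 2, a near copy of a 2-cell library, held 9.49 FPKM over complex II (others 0.0803 to 0.923 FPKM), and blastomere 4 of the same embryo 7.54 FPKM over complex III (others 0 to 1.35 FPKM). In blastomere 4 of 4-cell embryo 3 the mitochondrial mRNAs summed to 8737 times the nuclear members (others 194.9 to 2914 times). The interaction of method with the step from the 4- to the 8-cell stage was called for ATP5F1 (3.75 on the log2 scale) and UQCRC1 (2.94). Both genes passed the filter only through the IVF 8-cell cells in which they were high. Both calls were lost under other settings, as given above.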

How the results depend on the processing

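Of 263 values recomputed under an alternative, 190 stayed close to the reported value, 73 moved and 0 calls reversed, and the cause of a move was not tested unless the alternative itself removes genes or samples. The median ratio of nuclear genes shifted the median log2 change of all genes by 0.53 (IVF, 4- to 8-cell), 1.45 (IVF, 1- to 8-cell), 0.02 (PA, 4- to 8-cell) and 0.93 (PA, 1- to 8-cell). With 1 embryo per 8-cell group, a single blastomere can set a value, and no result separates the 8-cell stage from these embryos.

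The counts below are of members called. With a pseudocount of 0.1 they were 4 (IVF, 4- to 8-cell), 7 (IVF, 1- to 8-cell), 7 (PA, 1- to 8-cell), 1 (IVF over PA at the 4-cell stage) and 0 (interactions), and with a pseudocount of 5 the interactions numbered 5. Without a filter they were 1 (IVF, 2- to 4-cell), 14 (IVF, 4- to 8-cell), 1 (IVF over PA, 4-cell) and 9 (interactions). With at least 5 FPKM in 3 cells they were 1, 3, 5 (IVF, 2- to 4-, 4- to 8- and 1- to 8-cell), 1 (IVF over PA, 4-cell) and 0 (interactions). With nuclear genes alone, rescaled, the interactions numbered 1. With the median ratio they were 15, 19 (IVF, 4- to 8- and 1- to 8-cell), 2, 17, 21 (PA, 2- to 4-, 4- to 8- and 1- to 8-cell), 1 (IVF over PA, 4-cell) and 8 (interactions). With the mean of log2 values they were 2, 5, 6 (IVF, 2- to 4-, 4- to 8- and 1- to 8-cell), 1 (PA, 2- to 4-cell) and 1 (interactions). With only the groups compared they were 0 (IVF, 4- to 8-cell) and 1 (PA, 4- to 8-cell). Without the near-copied PA libraries they were 1 (PA, 2- to 4-cell) and 2 (IVF over PA, 4-cell). Without members that another gene of the table overlapped they were 4 and 7 (IVF, 4- to 8- and 1- to 8-cell), 5 and 7 (PA) and 1 (interactions). By the median ratio, the calls of all genes went up too. Genes called higher were 997 and 1518 in IVF (4- to 8- and 1- to 8-cell), beside 302 and 489 in the main fit. In PA they were 1206 and 1727, beside 553 and 615.

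Leaving out 1 embryo or 8-cell blastomere gave 0 to 2 (IVF, 2- to 4-cell), 5 to 13 (IVF, 4- to 8-cell), 8 to 12 (IVF, 1- to 8-cell), 0 to 1 (PA, 2- to 4-cell), 10 to 12 (PA, 4- to 8-cell), 8 to 12 (PA, 1- to 8-cell), 0 to 5 (IVF over PA, 4-cell) and 0 to 5 (interactions), and 0 to 0 elsewhere. The 5 for IVF was without the first 8-cell blastomere. NDUFAF5 was called lower in IVF (4- to 8-cell) without 4-cell embryo 3. Embryo numbers did not pair the groups (4 of 21 correlations above 0.1, range −0.022 to 0.355) except from the 2- to the 4-cell stage in PA, where all 3 pairs were above 0.1. Embryos 1 and 2 there hold the near-copied libraries, and without these the correlations were −0.013, 0.0086 and −0.0056. With the replicate block, 1 interaction was called (ATP5F1), and the other counts stayed at 9, 11, 10, 13 and 0.

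The 8- over 4-cell fold of the member sum was 8.30 in IVF (median ratio) and 8.15 (nuclear genes alone), 10.03 (median ratio), 13.3 (mean of log2 values) and 13.1 (without near-copied libraries) in PA. That of the mitochondrial mRNAs in IVF was 1.32 with nuclear genes alone and 4.18 with the median ratio. In PA it went from above to below 1 under the same settings (0.992 and 0.923), a move smaller than the spread between the 4-cell embryos. Leaving out 1 embryo or 8-cell blastomere, chosen after the data were seen, gave 1.77 to 4.41 (IVF) and 10.9 to 11.8 (PA) for the members and 1.37 to 1.97 (IVF) and 1.13 to 2.14 (PA) for the mitochondrial mRNAs.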

Other observations

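COX7B is listed more than once among the subunit symbols, by name and under an identifier (ENSSSCG00000032129). The gene listed by name was at 38.5 FPKM in PA 2-cell embryo 3 and 18.1 FPKM in IVF 1-cell embryo 3, at 0 in both 8-cell embryos, and it shares bases with ALDH1L2. The gene under the identifier had a mean of 0.648 FPKM and was highest in IVF 4-cell embryo 2 at 2.69 FPKM.

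NDUFA6, an accessory subunit of complex I, led the nuclear sum of PA 4-cell embryos with 35.2%, at 22.4, 3.37 and 44.0 FPKM. In IVF 4-cell embryos it was 0.456, 29.6 and 4.79 FPKM. The number of members at 1 FPKM or more had a median of 15 per cell in 1-cell embryos of both methods, 14.5 (IVF) and 7.5 (PA) at the 2-cell stage, 10 and 5 at the 4-cell stage and 17 and 19 at the 8-cell stage.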
